A study of Mus musculus with 3 samples.

Results

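CA1 is the field of the hippocampus in which the bodies of pyramidal neurons form a thin, dense layer, with their dendrites spread through the cell-poor layers on either side of it. The stratum oriens lies between the cell layer and the white matter above the hippocampus, and the strata radiatum and lacunosum-moleculare lie between the cell layer and the dentate gyrus (DG). The Schaffer collaterals, axons of the pyramidal neurons of CA3, end on CA1 dendrites, and CA3 in turn receives the mossy fibres of the DG granule cells. The field is known for its part in spatial and episodic memory.

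The spots described here are the 368 of 8549 capture spots that the authors assigned to CA1, 126 of 2881 in the section of a control (CON) mouse, 119 of 2828 in that of a resilient (RES) mouse and 123 of 2840 in that of a susceptible (SUS) mouse. Each section, 10 μm thick, was a coronal cut of the left hemisphere of a male C57BL/6J mouse aged 8 weeks. The RES and SUS mice went through 10 days of chronic social defeat stress (CSDS), in which a mouse is attacked daily by an aggressive CD-1 mouse and then kept behind a divider in its cage, and the CON mouse met non-aggressive C57BL/6 mice and was kept behind the same divider. Mice of the RES group had a social interaction ratio, the time near a strange mouse relative to the time near an empty cage, above 1 and the SUS group below 1, and brain tissue was taken 1.5 h after the last exposure. Each condition was 1 section of 1 mouse, so a difference between sections cannot be told apart from a difference between animals, cuts or libraries.

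The sections were placed on Visium slides, which carry 4992 capture spots in a hexagonal grid, and a spot collects the RNA of a patch of tissue in which more than 1 cell, or parts of cells, can lie. The deposited table gives for each spot the count of unique molecular identifiers (UMIs, each marking 1 captured molecule), the number of genes detected, and 3 percentages: percent.mito for mitochondrial transcripts, percent.rb for ribosomal protein transcripts and percent.redcell for red blood cell transcripts. Transcripts of the mitochondrial genome encode parts of the respiratory chain, ribosomal protein transcripts encode parts of the translation machinery, and red blood cell transcripts, mainly of haemoglobin, mark blood in a tissue. The authors assigned areas from the stained image, the Allen Mouse Brain Atlas and marker genes. Counts per gene were not analysed here, so the CA1 label was checked by position alone and neither Hpca, the hippocampal marker of the study, nor any marker of a cell type was measured.

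By position, the CA1 spots formed 1 unbroken patch in each section, an arch 22 spots wide in CON and 24 in RES and SUS, over 10, 11 and 10 grid rows. Of the places next to a CA1 spot that are listed in the table, 85.6% in CON, 83.0% in RES and 84.3% in SUS were themselves CA1. Of those that were not, 52.1% to 53.2% were FB (fiber tracts), 31.2% to 34.8% DG, 9.57% to 12.8% CA3 and 2.75% to 4.13% D3V. The patch thus lay between the fiber tracts on its outer side and DG on its inner side, with CA3 at its end, and every CA1 spot was covered by tissue. Of all spots, CA1 took 4.37% in CON (95% exact Clopper-Pearson interval 3.66 to 5.19). In RES its share was 4.21% (3.50 to 5.01), and SUS had 4.33% (3.61 to 5.15). It held 3.97%, 5.27% and 4.17% of the UMIs of all spots, whose totals ranged from 31196847 in RES to 37536349 in CON.

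**Figure D1:**
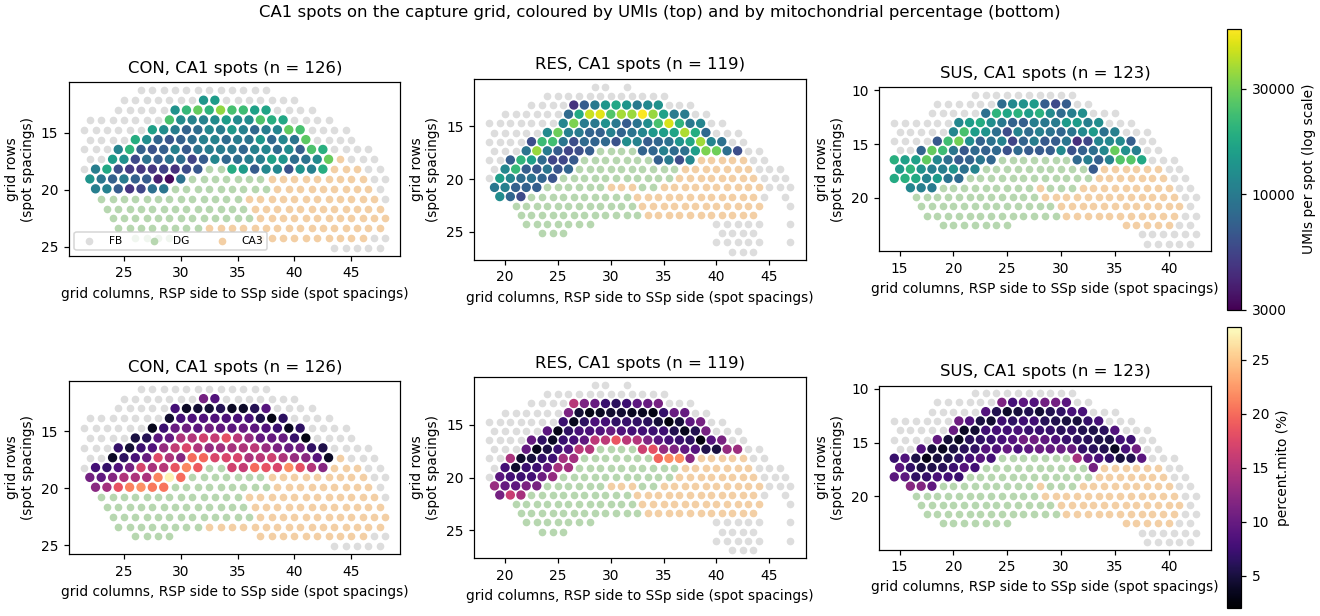
Maps of the CA1 area in each section on the capture grid, coloured by UMIs per spot (top row, log scale) and by percent.mito in percent (bottom row), with FB, DG and CA3 spots around them in grey, green and orange; both axes are in spot spacings. Spots of many UMIs lie along the outer arch near FB, and percent.mito is higher on the inner side that faces DG, where the median beside DG was 19.3% in CON, 15.2% in RES and 9.49% in SUS.

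UMI counts spread widely within CA1. They ran from 3186 to 34504 per spot in CON with a median of 10489.5 (95% order-statistic interval 9601 to 11292), from 4530 to 55182 in RES with a median of 9898 (9229 to 11207), and from 4468 to 29902 in SUS with a median of 10485 (9434 to 11433). The upper quartile was 1.79 times the lower in CON, 2.01 times in RES and 1.74 times in SUS. The 3 medians lay inside each other's intervals, and the upper end of the range was highest in RES. Of the 50 spots with the most UMIs in the RES section 14 lay in CA1, against 1 of 50 in CON and 1 of 50 in SUS, and the spot with the most UMIs of the whole section was a CA1 spot in both RES and CON. The intervals reflect the counting of spots inside 1 section, not animals, and adjacent spots are not independent, which makes them too narrow.

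The high counts were not scattered through the area. A spot's UMIs went with the mean of the CA1 spots adjacent to it, with a Spearman's rho of 0.678 in CON (126 spots), 0.594 in RES (119 spots) and 0.574 in SUS (123 spots), given as a description because neighbours share tissue and library. To follow this, the spots of each section were ranked by UMIs, and the top and the bottom 1 in 3 were taken as high-UMI and low-UMI spots (42, 39 and 41 of each). For CON, RES and SUS in turn, high-UMI spots began at 12113, 12402 and 12102 UMIs, and low-UMI spots ended at 8647, 8121 and 8684. High-UMI spots stood beside each other: of the CA1 places adjacent to them 49.5% in CON, 54.7% in RES and 54.1% in SUS were high-UMI too, against 14.9%, 12.3% and 15.4% of those adjacent to low-UMI spots.

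Most high-UMI spots were near the fiber tracts. In CON 34 of 42 high-UMI spots (81.0%) lay within 2 grid steps of an FB spot, in RES 30 of 39 (76.9%) and in SUS 34 of 41 (82.9%), while of the low-UMI spots 19.0%, 17.9% and 19.5% did. At 4 or more steps the order was the reverse, with 9.52%, 2.56% and 4.88% of the high-UMI spots and 52.4%, 61.5% and 51.2% of the low-UMI spots. A band of many UMIs therefore ran along the outer side of CA1 in all 3 sections. Whether this band is the pyramidal cell layer and the low-UMI spots the layers of dendrites was not checked against the image or any gene.

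Step by step from FB, the position of the band differed between sections. In CON median UMIs were highest in the spots that touch FB, at 18445 (29 spots), followed by 10689 at 2 steps (28 spots) and 8626 at 3 steps (24 spots). In RES they were 10030 at 1 step (31 spots), 24394 at 2 steps (28 spots) and 9451 at 3 steps (24 spots). In SUS they were 11781 at 1 step (30 spots), 14693 at 2 steps (28 spots) and 9399 at 3 steps (27 spots). CON thus had no row of lower counts between the band and FB, while RES and SUS had one. Farther in, at 4 steps, the medians were 8514 in CON (19 spots), 7663 in RES (22 spots) and 8997 in SUS (23 spots). Among steps with 9 or more spots, the highest median was 2.17 times the lowest in CON, 3.18 times in RES and 1.80 times in SUS. How the authors drew the line between CA1 and FB bears on which step a spot falls in, and its part in this was not tested.

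**Figure D2:**
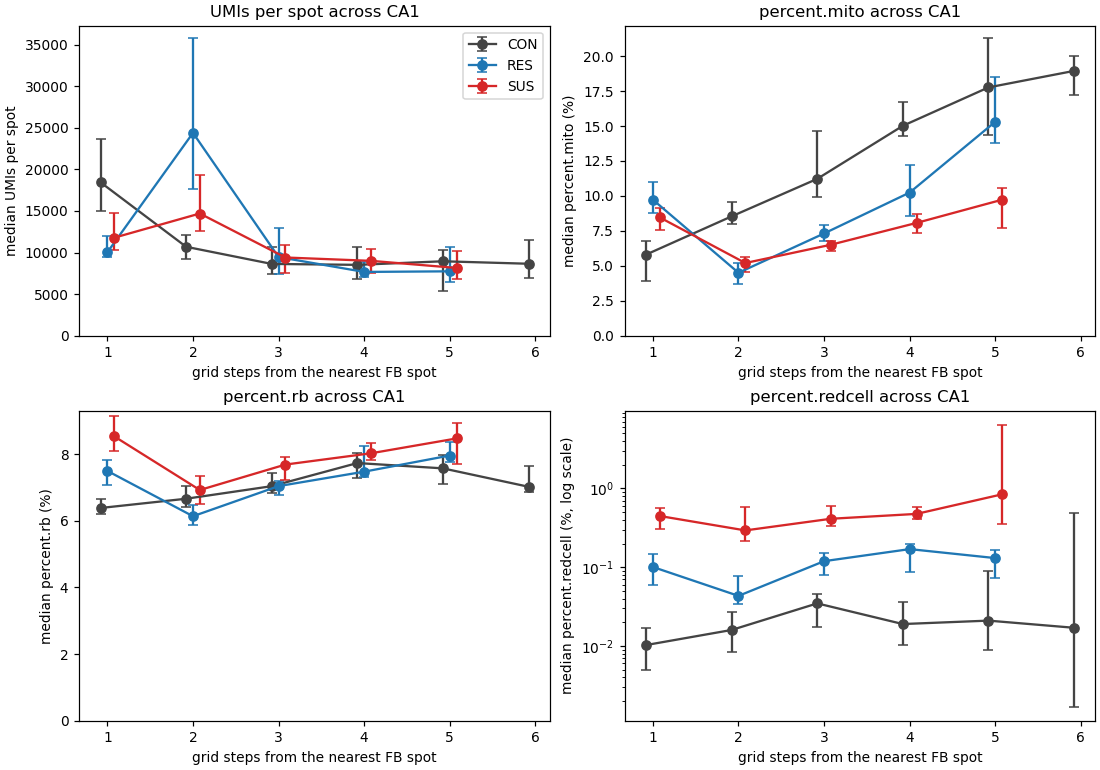
Median UMIs per spot, percent.mito, percent.rb and percent.redcell (in percent, the last on a log axis) of CA1 spots against grid steps from the nearest FB spot, for the CON, RES and SUS sections, with 95% order-statistic intervals as bars; steps with fewer than 9 spots are left out. UMIs peak at 1 step in CON (18445) and at 2 steps in RES (24394) and SUS (14693), and percent.mito is lowest at the same step in each section, at 5.80%, 4.50% and 5.20%.

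Counted from the other side, the same band stood 6 steps from DG in CON, with a median of 21080 UMIs (19 spots), and 4 steps from DG in RES (28861 UMIs, 25 spots) and SUS (14770 UMIs, 26 spots). Next to DG the medians were 8311.5 (18 spots), 7441 (21 spots) and 8331 (21 spots). The sections were thus closer to each other on the inner side of CA1 than in the band. CA1 spots that touch FB had 1.34 times the median UMIs of all other CA1 spots, as the geometric mean over sections. The ratios were 2.01 in CON, 1.04 in RES and 1.15 in SUS (two-sided exact sign-flip permutation p = 0.25, the smallest p that 3 sections allow). By the mean over spots RES was at 0.803, below 1 (exact p = 0.75 over the sections), and the ratio of medians without CON was 1.09, while for spots within 2 steps of FB against those farther in it was 1.56 (1.52, 1.66 and 1.50, exact p = 0.25), so the widened strip gave the more even values.

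Along the arch, each section was also divided into 3 parts of about equal spot number from the side of the retrosplenial area (RSP), which is medial, to that of the primary somatosensory area (SSp), which is lateral. Median UMIs from medial to lateral were 8821, 10398.5 and 11615 in CON and 9308, 9707 and 11659 in RES. In SUS the medial part was the highest, with 11753, 8997 and 10397. No order of UMIs along the arch was shared by the 3 sections. Percent.rb had the same order in each, going from a medial 6.65% to a lateral 7.21% in CON, with the middle part between them at 7.0%. For RES the medians from medial to lateral were 7.05%, 7.21% and 7.30%, and for SUS 7.52%, 7.93% and 8.06%. The intervals of adjoining parts overlapped, except those of the medial and middle parts in SUS, where the medial upper and the middle lower bound (7.78% and 7.79%) nearly met.

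The mitochondrial percentage was graded from the band of many UMIs towards DG. In CON it was 5.80% at 1 step from FB, 8.54% at 2 steps, 11.2% at 3 steps, 15.0% at 4 steps (19 spots) and 17.8% at 5 steps (16 spots). In RES it went from 9.73% at 1 step to 4.50% at 2 steps, 7.31% at 3 steps, 10.2% at 4 steps and 15.3% at 5 steps (13 spots). In SUS the values were 8.46%, 5.20%, 6.51%, 8.07% and 9.73% (13 spots at the last step). In each section the lowest median stood at the step with the most UMIs, and the percentage was higher at each further step that held 9 or more spots. Among those steps the highest median was 3.27 times the lowest in CON, 3.40 times in RES and 1.87 times in SUS, so the inward gradient was shallowest in SUS.

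High-UMI and low-UMI spots differed the same way. Median percent.mito was 6.49% in the high-UMI spots of CON (range 2.92 to 18.2) and 14.6% in its low-UMI spots (7.32 to 27.3). In RES it was 4.95% (2.65 to 15.3) against 11.5% (6.93 to 22.0). In SUS it was 5.65% (3.04 to 9.28) against 8.11% (5.42 to 14.0). The ranges overlapped in every section, and the medians of high-UMI minus low-UMI spots were -8.13, -6.52 and -2.46 percentage points. The mean difference was -5.70 percentage points (SD 2.93, n = 3 sections, two-sided exact sign-flip permutation p = 0.25), lower in 3 of 3 sections. It was -3.63 in spots surrounded by CA1 alone and -3.79 with each section split at its middle rank, with the same sign in every section. The percentages and the deposited UMI total do not share a denominator. In a CON spot of 24796 UMIs percent.redcell was 0.00380%, below the share of a single transcript in that total. There the percentage thus rested on a larger total. Which UMIs the deposited total leaves out is not stated in the sources used here. If they are mitochondrial, spots were split, and elsewhere matched, by their other UMIs. At an equal larger total, a higher percent.mito then leaves fewer deposited UMIs, and its part in the difference was not tested.

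The same contrast was present in the other hippocampal fields. From low-UMI to high-UMI spots, the median percent.mito of CA3 differed by -9.01 percentage points for CON, -9.71 for RES and -4.66 for SUS. The differences within DG were -11.4, -14.5 and -4.06, each a larger gap than in CA1 of the same section. Across CA1 spots, Spearman's rho of UMIs with percent.mito was -0.652 for CON, -0.718 for RES and -0.461 for SUS, where both values of a spot come from the same library. Percent.mito was also the measure most alike between adjacent CA1 spots in CON and RES, with a rho of 0.889 and 0.670 between a spot and the mean of its neighbours. In SUS that rho was 0.558, beside 0.574 for UMIs.

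Ribosomal protein transcripts varied less, with upper quartiles between 1.14 and 1.17 times the lower ones. Median percent.rb was 6.64% in high-UMI and 7.21% in low-UMI spots of CON. For RES these were 6.33% and 7.96%, and for SUS 6.95% and 8.41%. The difference was -0.565, -1.64 and -1.45 percentage points (mean -1.22, SD 0.573, n = 3 sections, exact sign-flip permutation p = 0.25), lower in 3 of 3 sections. In spots surrounded by CA1 alone the CON difference was -0.0843, and with each section split at its middle rank the mean difference was -0.725. Along the steps from FB the lowest percent.rb, 6.39% in CON, 6.14% in RES and 6.93% in SUS, fell at the same step as the highest UMIs. In RES and SUS the row touching FB was higher, at 7.50% and 8.54%. Percent.rb and percent.mito went together over CA1 spots, with a Spearman's rho of 0.630, 0.824 and 0.703. In DG the gap in percent.rb between high-UMI and low-UMI spots was smaller than in CA1, at -0.457, -0.156 and -0.245 percentage points. In CA3 it was -1.60, -1.63 and -1.62, larger than in CA1 for CON and SUS.

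Red blood cell transcripts followed another pattern. Their percentage was little alike between adjacent CA1 spots, with a rho of 0.131 in CON, 0.186 in RES and 0.231 in SUS. High-UMI spots had a median of 0.0136% against 0.0305% in low-UMI spots of CON, 0.0677% against 0.146% in RES, and 0.447% against 0.448% in SUS. The mean difference was -0.0323 percentage points (SD 0.0410, n = 3 sections, exact sign-flip permutation p = 0.25), and in SUS the medians were nearly equal. The SUS value depended on the split and the summary, at -0.104 between the top and bottom 1 in 4 spots and -0.617 by means, and without RES the mean difference was -0.00910. High values sat in few spots, and the mean over CA1 spots was 3.50 times the median in CON, 2.37 times in RES and 2.14 times in SUS.

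CA1 spots above 1% red blood cell transcripts numbered 2 of 126 in CON (1.59%, 95% exact interval 0.193 to 5.62), 5 of 119 in RES (4.20%, 1.38 to 9.53) and 25 of 123 in SUS (20.3%, 13.6 to 28.5). The shares over all spots of the sections were 1.70%, 4.46% and 17.9%, close to those in CA1. Of the 25 SUS spots 7 lay beside DG and 6 beside FB, where 21 and 30 of all 123 CA1 spots of that section lay. The highest value was 1.76% in CON, 5.76% in RES and 11.6% in SUS. At the other end, 20 CON spots were listed at 0 and none in RES or SUS.

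Between sections, CA1 had median UMIs and genes whose ratios to CON had intervals that included 1. Relative to CON, median UMIs were 0.944 times as high in RES (interval 0.817 to 1.17) and 1.0 times in SUS (0.835 to 1.19), and median genes were 0.940 times (0.861 to 1.05) and 0.984 times (0.897 to 1.09). By the mean over spots the RES to CON ratio of UMIs was 1.17, and divided by the median of each section it was 1.21, so its direction rested on the summary used. With 1 section per condition no test was made.

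Median percent.mito in CA1 was 10.8% in CON (9.83 to 13.1), while RES had 8.56% (7.65 to 9.47) and SUS 7.34% (6.74 to 7.78). RES differed from CON by -2.26 percentage points (interval -5.41 to -0.358), and SUS by -3.47 (-6.32 to -2.04), so both were lower. All spots of the sections went the same way, with medians of 10.5%, 9.64% and 8.03%, and taken from the median of the section the differences were -1.43 (RES) and -1.02 (SUS). In CA1 spots surrounded by CA1 alone they were -4.45 and -5.13. That choice leaves out the row touching FB, where median percent.mito was 5.80% in CON, 9.73% in RES and 8.46% in SUS. This row held the band of many UMIs in CON but not in RES or SUS, so unlike strips of CA1 were compared. In CA3 the differences were -0.873 (RES) and -3.21 (SUS), and in DG 4.47 (RES, interval -2.12 to 8.06) and -0.698 (SUS, -5.93 to 1.90). In spots of 10000 to 15000 UMIs the CA1 differences were -2.16 and -2.53. Whether the difference between sections was itself unlike between fields was not tested.

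Median percent.rb was 6.99% in CON (6.85 to 7.10), while RES had 7.20% (7.04 to 7.33) and SUS 7.84% (7.59 to 8.04). SUS stood 0.859 percentage points above CON (0.489 to 1.20), beside 0.356 in CA3 (-0.427 to 0.892) and 0.274 in DG (-0.255 to 0.686). Over all spots the medians were 7.50%, 7.30% and 7.47%, so the higher value in SUS was not shared by the section as a whole. In CA1 spots surrounded by CA1 alone it was 0.321, and the RES difference was -0.365 in place of 0.218. That choice leaves out the row touching FB, where the medians were 8.54% in SUS and 6.39% in CON. It also leaves out the row beside DG, where they were 8.44% and 6.98%.

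Median percent.redcell was 0.0174% in CON (0.0138 to 0.0226), while RES had 0.100% (0.0787 to 0.131) and SUS 0.431% (0.370 to 0.485). The order was that of all spots, at 0.0154%, 0.0714% and 0.281%, and of CA3 (0.0236%, 0.0743%, 0.302%) and DG (0.0128%, 0.0778%, 0.486%). Blood left in the tissue and the library of a section cannot be told apart from its condition here.

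**Figure D3:**
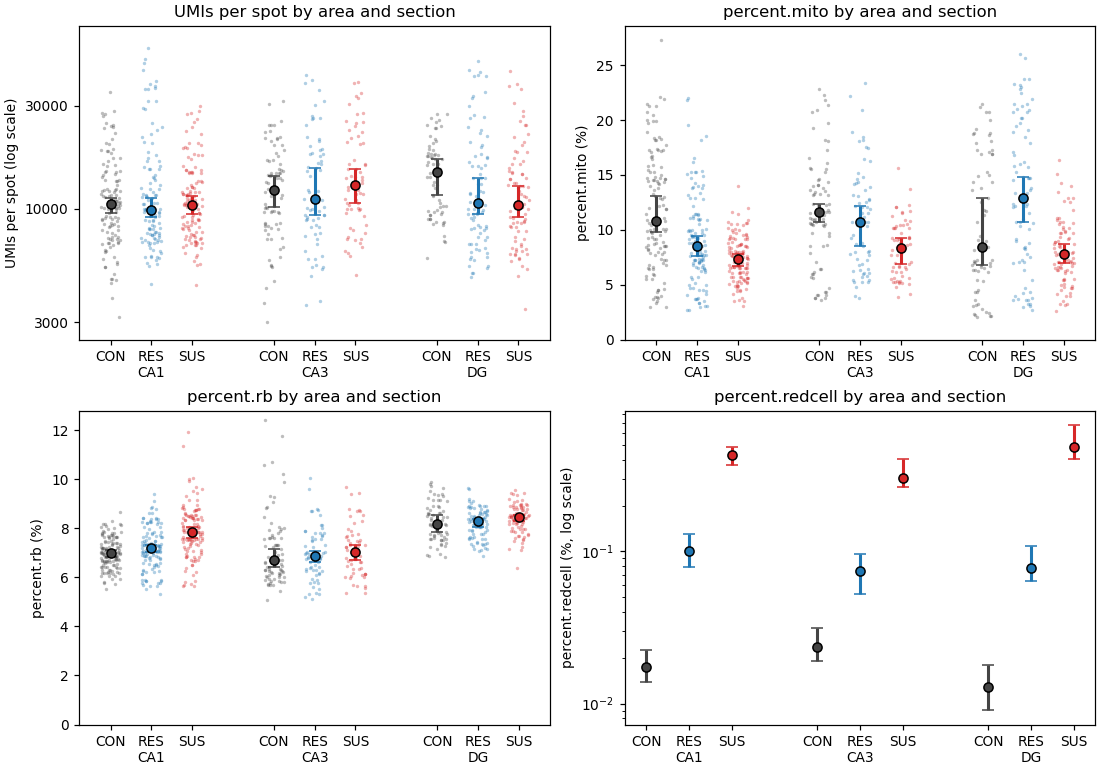
UMIs per spot (log axis), percent.mito, percent.rb and percent.redcell (in percent, the last on a log axis) in CA1, CA3 and DG of the CON, RES and SUS sections; small points are spots (not drawn for percent.redcell, which has spots at 0), large points medians and bars 95% order-statistic intervals. CA1 medians of UMIs are alike in the 3 sections (9898 to 10489.5), percent.mito is lowest in SUS (7.34%), and percent.redcell is lowest in CON and highest in SUS in each area.

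Against the other hippocampal fields of the same section, CA1 held fewer UMIs than CA3. Median UMIs in CA1 were 0.861 times those of CA3 in CON (12183 in CA3), 0.892 times in RES (11094) and 0.813 times in SUS (12902.5), a mean of 0.855 (exact sign-flip permutation p = 0.25, lower in 3 of 3 sections). Against DG the ratios were 0.705, 0.927 and 1.0 (geometric mean 0.869, exact p = 0.5), the DG medians being 14869, 10679 and 10455. In spots surrounded by their own area alone the gap was wider, 0.660 times CA3 (0.652 to 0.674 over the sections) and 0.637 times DG (0.544 to 0.713, exact p = 0.25 for each). Among the 17 areas of each section CA1 ranked 16 in CON by median UMIs, 11 in RES and 10 in SUS, where 1 is the highest.

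Percent.mito in CA1 was below that of CA3, with differences of -0.780, -2.17 and -1.04 percentage points (mean -1.33, exact p = 0.25), and in spots surrounded by their own area alone the mean difference was -0.195, with CON at 1.15. Against DG it had no shared direction, with differences of 2.36 in CON, -4.37 in RES and -0.413 in SUS (exact p = 0.75). By its median, percent.rb placed CA1 between its neighbours in every section. It was above CA3 by 0.291, 0.319 and 0.793 percentage points (mean 0.467) and below DG, with differences of -1.19, -1.09 and -0.607 (mean -0.962), and the exact p = 0.25 for each. By the mean over spots CA1 was below CA3 in CON (difference -0.119, exact p = 0.5 over the sections), and the mean difference of medians from CA3 was 0.305 without SUS and 0.780 in spots surrounded by their own area alone. Percent.redcell differed from CA3 by -0.00619, 0.0260 and 0.129 (exact p = 0.5) and from DG by 0.00461, 0.0224 and -0.0548 (mean -0.00925, exact p = 1), above DG in CON and RES. The p-values of the sign-flip tests are not adjusted, since none over 3 sections can be below 0.25 and a correction only raises them.

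Genes detected per spot depend on UMIs, with a Spearman's rho of 0.996 to 0.998 across CA1 spots, so genes were also compared at matched UMIs. The unmatched medians were 4276.5 in CON, 4019 in RES and 4208 in SUS, 0.927 times those of CA3 and 0.911 times those of DG as means over sections (exact p = 0.25 for each). In spots of 10000 to 15000 UMIs, CA1 had a median of 4540 genes in CON (47 spots), 4327 in RES (27 spots) and 4472.5 in SUS (44 spots). DG had 4815.5 (16 spots), 4551 (15 spots) and 4721.5 (26 spots), and CA3 had 4681.5 (30 spots), 4393 (11 spots) and 4434 (21 spots). CA1 was thus at 0.943, 0.951 and 0.947 times DG (exact p = 0.25) and at 0.970, 0.985 and 1.01 times CA3 (exact p = 0.5).

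The window did not make the depths equal, since CA1 spots inside it had median UMIs of 11522, 11540 and 11714 and DG spots 12701.5, 11957 and 12538. With each CA1 spot set against DG spots within 10% of its UMIs, the ratio of genes was 0.997, 0.990 and 0.978 (mean 0.988, exact p = 0.25), and against CA3 spots it was 1.02 in each section (exact p = 0.25), above 1 also in CON and RES, which were below 1 in the window. At depths within 10% a CA1 spot therefore had slightly fewer genes than a DG spot and slightly more than a CA3 spot in these 3 sections.

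**Figure D4:**
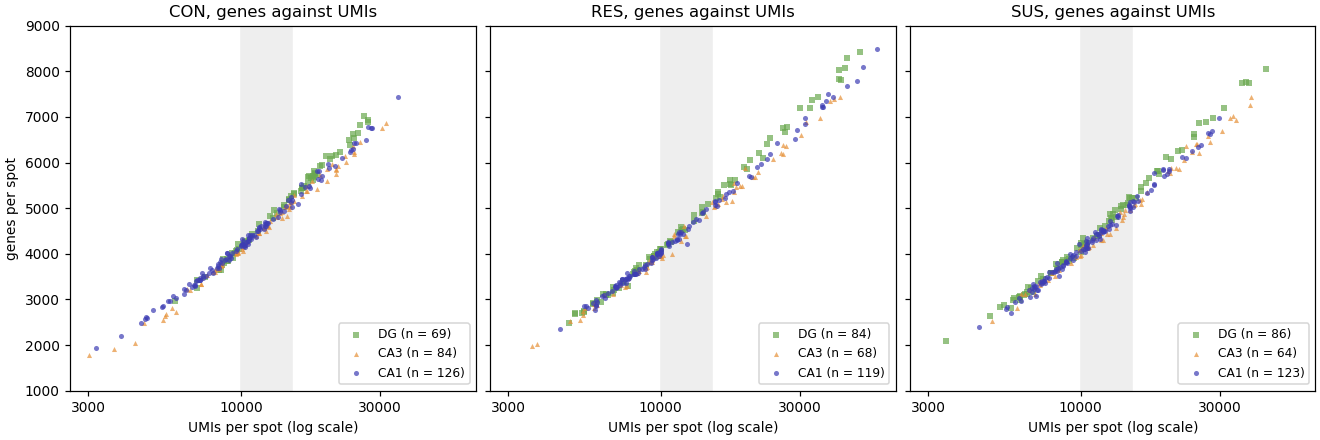
Genes per spot against UMIs per spot (log axis) for the CON, RES and SUS sections, 1 point per spot, with CA1 as circles, CA3 as triangles and DG as squares; the grey band is the window of 10000 to 15000 UMIs. The 3 areas follow nearly the same curve, with DG above CA1 and CA3 at high UMIs, and the RES section has the CA1 spot with the most UMIs (55182).

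Against spots outside the hippocampus within 10% of its UMIs, a CA1 spot had 1.02 times the genes in CON (median over 126 spots, interval 1.01 to 1.02). The ratio was 0.995 in RES (112 of its 119 spots, the others having fewer than 5 such matches) and 0.998 in SUS (123 spots). For percent.mito the difference was -1.11 percentage points in RES (interval -2.13 to -0.597), -0.942 in SUS (-1.30 to -0.478) and -0.697 in CON (-1.84 to 1.32). Percent.rb differed in direction, at -0.537 for CON (-0.726 to -0.401), 0.0987 for RES (-0.0206 to 0.260) and 0.503 for SUS (0.310 to 0.677). Percent.redcell was 0.0346 above in RES and 0.139 above in SUS and its interval in CON included 0 (-0.00236 to 0.00594). Of these, a lower mitochondrial percentage than in spots of matched deposited UMIs had the same sign in all 3 sections.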

How the data were processed

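The study measured spatial gene expression with 10x Genomics Visium in 3 sections. The authors ran ST Pipeline on the reads with mm10 as the genome and read the counts into Seurat, with minimums for a gene (10 reads, 2 spots) and for a spot (200 UMIs). The lowest count in the deposited table is 188 UMIs, in a CON spot outside CA1. The submitters' processing notes also name bcl2fastq, cutadapt and Space Ranger 1.0.0. The deposited table holds UMI counts and gene counts per spot, not normalized. It also holds percent values calculated by the authors, for which neither gene lists nor a denominator is given in the sources used here. Percent values times the deposited UMI total gave whole numbers, within 0.001, in 0 of 368 CA1 spots for percent.mito and 1 of 368 for percent.rb, so they rest on another total and were compared only as percentages. The deposited position lists give the grid place of each spot as plain numbers.

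Members were the spots whose area label is CA1, and sections were assigned by the label matched to sample titles. Spots were joined to positions by section and barcode. A barcode marks a grid place, and 42 places were CA1 in all 3 sections, which is not sharing of cells. Grid steps count moves between the 6 nearest places. The members, areas compared and splits were chosen with earlier results of these data known, and the parts along the arch and the matching to spots outside the hippocampus were added after the data were seen. Medians have 95% order-statistic intervals, the interval of a ratio or difference combines the bounds of both medians, and shares have exact Clopper-Pearson intervals. Comparisons within sections used a two-sided exact sign-flip permutation test over 3 sections, on log ratios for UMIs and genes. The mean of ratios over sections is the geometric mean. No p-value was calculated from spots. A value was taken as moved under an alternative when it fell outside the reported interval. No gene was named by its values. Interval coverage and grid distances were tested on simulated data. Image files and scale factors were not used here. Calculations were made in Python 3.11.15 (scipy 1.17.1 for intervals, pandas 2.3.3 and numpy 2.4.6 for tables, matplotlib 3.10.9 for plots).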

Additional observations from a re-analysis of the deposited data

How the results depend on the processing

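The 29 results were recomputed under 155 alternatives in all, of which 135 left the value within the interval or the direction unchanged, 14 moved it and 6 reversed it, and 16 results had no change under any. Results paired by section were scored on direction only. For contrasts of sections a reversal was scored only where the interval left out no difference, so other turns of direction were counted as moved or unchanged. Some alternatives could hardly change a value, so these counts do not measure stability. The cause of the changes was not tested unless stated. With all spots covered by tissue as the denominator, the CA1 share was 3.32% in CON, 3.08% in RES and 3.25% in SUS, because that denominator holds more spots. With the mean in place of the median, the RES to CON ratio of UMIs was 1.17, and percent.redcell was above CON by 0.177 percentage points in RES and 0.864 in SUS. Set against the median of the section, the RES to CON ratio was 1.21 for UMIs and 1.09 for genes, the percent.redcell difference was 0.0269 in RES and 0.148 in SUS, and the percent.mito difference in SUS was -1.02. In spots surrounded by CA1 alone, the RES to CON ratio of genes was 1.05 and the percent.rb difference was -0.365 in RES and 0.321 in SUS. That choice leaves out the row touching FB, which held the band of many UMIs in CON but not in RES or SUS. The ratio of genes at matched UMIs between CA1 and CA3 was 1.02 both at 15000 to 20000 UMIs and with spots within 10%. In spots surrounded by their own area alone, CA1 minus DG was 1.06 for percent.mito and 0.0367 for percent.redcell. Leaving out each section in turn, it ran from -2.39 to 0.972 for percent.mito, turning positive without RES, and from -0.0251 to 0.0135 for percent.redcell, turning positive without SUS. No CA1 spot had under 1000 UMIs, so that filter removed none. No paired analysis was possible because, between conditions, the labels give no replicate numbers and each condition has 1 section. Comparisons within sections were paired by section.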
